A study of Homo sapiens with 4 samples.

Results

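The ERBB receptors and their ligands were followed as 10 genes, the 4 receptors EGFR, ERBB2, ERBB3 and ERBB4 and the 6 EGF-family ligands AREG, EREG, TGFA, HBEGF, EGF and BTC, among 58825 gene rows counted in LoVo cells. They were chosen by name, with earlier results of these data known, as a receptor system that could stand in for MET. Their Ensembl identifiers were found by symbol in GENCODE version 29. LoVo is a colon adenocarcinoma line whose MET receptor tyrosine kinase stays uncleaved and is phosphorylated in the absence of its ligand. RNA from 2 biological replicates of MET+ cells, labelled WT with library names that begin LOVOGFPCTR, was compared with RNA from 2 biological replicates of MET-KO cells, in which MET was edited with CRISPR/Cas9. All cells were grown in DMEM with fetal bovine serum and antibiotics, and no drug or growth factor treatment is named for these samples. The study picked single clones and selected knock-out clones by western blot. How many clones the 2 MET-KO libraries come from is not given in the sources used here, so a trait of a clone and an effect of losing MET cannot be told apart.

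ERBB receptors are tyrosine kinases that pair with each other when a ligand binds. EGFR binds the ligands studied here, ERBB3 and ERBB4 bind neuregulins, ERBB2 has no known soluble ligand and serves as the favoured partner, and ERBB3 has a weak kinase and signals through its partners. The ligands are made as membrane-anchored precursors, and proteases of the ADAM family cut them free to act on the same cell or its neighbours. In colorectal cancer AREG and EREG are known as the ligands that accompany dependence on EGFR.

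The libraries held 8429142 to 10286552 counts, and 17849 to 19722 genes had at least 1 count in a library. Levels are given in CPM (counts per 1e6), with library sizes scaled by TMM. QuantSeq 3' libraries take 1 fragment per transcript, at its 3' end, so that CPM can be compared between genes without a correction for length. MET itself went from 338 and 336 CPM in MET+ cells down to 84.4 and 88.9 CPM in the knock-out, a check of the labels on transcript level that does not show the edit itself. The groups stood apart in more than MET. Over all 13801 genes tested, 54.1% were called by edgeR (quasi-likelihood F test, p adjusted by the method of Benjamini and Hochberg, threshold 0.05). MET-KO levels were the higher ones for 27.2% and the lower ones for 26.9%, and both groups kept apart without overlap for 75.6%. With a size of at least 1 on the log2 scale required as well, 24.3% were called. Changes are given as log2 of MET-KO over MET+, with the standard error (SE) and edgeR's adjusted p. A list of 9 Y-chromosome genes summed to 0 counts in both MET+ libraries and to 6741 and 6801 counts in the MET-KO libraries. Of 13 colon epithelial markers, 9 were called lower and 2 higher in MET-KO cells. The markers CEACAM5, CDH17 and GPA33 had 0 counts in both MET-KO libraries, KRT20 had 0 in both MET+ libraries and CDX1 had 0 in all 4. CDX2 rose from 525 and 648 counts in MET+ cells to 1477 and 1338 in MET-KO cells. VIL1 fell from 43 and 58 to 3 and 3, LGALS4 from 89 and 107 to 1 and 1, and HNF4A from 541 and 804 to 83 and 61. KRT8, KRT18, KRT19 and EPCAM had at least 1988 counts in every library. The list summed to 9652 and 9708 CPM for MET+ and to 8250 and 7267 CPM for MET-KO, most of it from KRT18 (50287 to 57085 counts). Fibroblast, immune and endothelial marker lists each summed to at most 8.11 CPM, with PTPRC, CD3E, CDH5 and DCN at 0 in all libraries. In these lists 1 immune gene was called lower and 1 fibroblast gene higher. LYZ had 38 and 79 counts in MET+ cells against 3 and 1 in MET-KO cells, and COL3A1 had 4 and 5 against 24 and 26. A difference between the cells that came before the edit and an effect of MET cannot be told apart in any of the comparisons that follow. With 2 libraries against 2, an exact permutation test of a single gene cannot go below p = 0.333 (two-sided), so the calls depend on edgeR's estimate of spread, which pools information over genes.

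Of the 10 genes, 8 had enough counts to be tested, and 6 of these were called, 5 lower (ERBB3, AREG, EREG, HBEGF and BTC) and 1 higher (TGFA) in MET-KO cells. These counts stand against 26.9% of all genes called lower and 27.2% called higher. The groups did not overlap for 7 of the 8, against 75.6% of all genes, and 4 were called with a log2 size of at least 1, against 24.3%. EGFR and ERBB2 did not pass the threshold, and ERBB4 and EGF were at or near 0 counts throughout. AREG and EREG fell furthest, by 5.36 and 6.16 on the log2 scale, while no receptor moved by more than 1.28. The median log2 change of the 8 tested genes was -1.13, against 0.01 over all genes tested. The genes were chosen with earlier results of these data known, so these contrasts with all genes only describe them. The 6 calls were kept in each of the 4 fits that left out a library. In RNA from whole cultures, fewer cells that express a gene and less RNA per cell cannot be told apart.

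**Figure D1:**
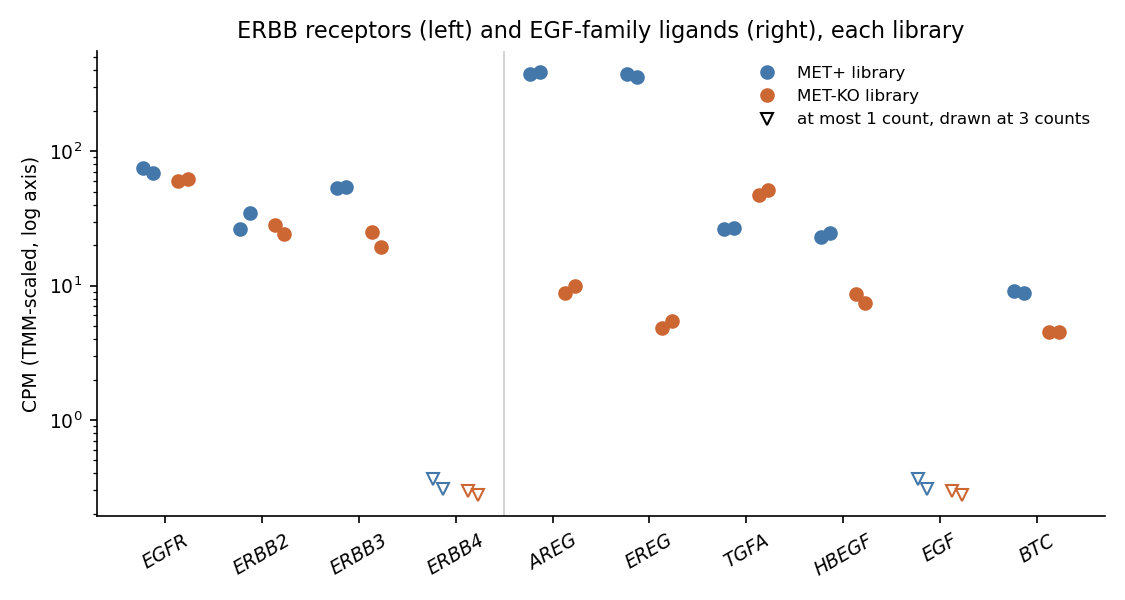
Level of each receptor and ligand gene in each library, in TMM-scaled CPM on a log axis, with MET+ libraries in blue and MET-KO libraries in orange. Open triangles mark libraries with at most 1 count, drawn at the level of 3 counts (0.276 to 0.363 CPM). AREG and EREG lie at 356.5 to 389.8 CPM in MET+ and at 4.80 to 9.85 CPM in MET-KO cells, and TGFA is the only gene whose MET-KO libraries both lie above the MET+ libraries.

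EGFR (ENSG00000146648, chromosome 7, 55019021 to 55211628, plus strand, GRCh38) had 75.2 and 68.5 CPM in the MET+ libraries, against 59.6 and 61.7 CPM for MET-KO. Both MET-KO libraries lay below both MET+ libraries, and EGFR was the most abundant receptor in all 4. Its log2 change was -0.24 (SE 0.11, 95% interval -0.46 to -0.03, edgeR adjusted p = 0.0528). The value depended on the MET+ replicates, at -0.32 (edgeR adjusted p = 0.0488) without replicate 2 and at -0.17 (edgeR adjusted p = 0.304) without replicate 1. The adjusted p was 0.306 with library totals alone (edgeR) and 0.194 in DESeq2's Wald test. The median change over the other 672 tested genes of chromosome 7 was 0.50, and 77.5% of them were above 0. The 14 tested genes within 5 Mb of EGFR were more mixed, with a median of 0.22. Of these 14, 5 were called higher and 3 lower, against 27.2% and 26.9% of all genes. EGFR stood at percentile 14.3 of the chromosome, lower than the chromosome's median by 0.75 on the log2 scale. Its antisense gene EGFR-AS1 had 0 counts in all libraries.

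ERBB2 (ENSG00000141736, chromosome 17, 39687914 to 39730426, plus strand) had 26.3 and 34.9 CPM in MET+ cells, against 28.0 and 24.4 CPM for MET-KO. The groups overlapped. The log2 change was -0.23 (SE 0.15, 95% interval -0.53 to 0.07, edgeR adjusted p = 0.184), which leaves room for a change in either direction. It depended on the MET+ replicates, at -0.41 (edgeR adjusted p = 0.02345) without replicate 1 and -0.016 without replicate 2. The 3' end of ERBB2, where reads of these libraries fall, is overlapped on the other strand by MIEN1. MIEN1 rose from 28.5 and 33.8 CPM to 67.7 and 63.4 CPM (log2 change 1.07, edgeR adjusted p = 2.49e-09), and its part in the ERBB2 value was not tested, because the strand setting of the counting is not given in the sources used here. GRB7, an adaptor gene near ERBB2 on the same chromosome, had a log2 change of -0.02 (adjusted p = 0.895, edgeR). PGAP3, another neighbour, fell from 4.27 to 1.46 CPM (-1.54, adjusted p = 0.00204, edgeR). The other 874 tested genes of chromosome 17 had a median of 0.05, and ERBB2 stood at percentile 31.6 among them. Of the 171 tested genes within 5 Mb, 62 were called higher and 30 lower, against 27.2% and 26.9% of all genes. The median of the 171 was 0.17.

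ERBB3 (ENSG00000065361, chromosome 12, 56076799 to 56103505, plus strand) was the receptor that fell. Its MET+ libraries held 53.5 and 54.1 CPM, its MET-KO libraries 25.1 and 19.4 CPM, and the groups did not overlap. The mean went from 53.8 ± 0.396 CPM to 22.3 ± 4.01 CPM (SD, n = 2 each), and the log2 change was -1.28 (SE 0.13, edgeR adjusted p = 4.16e-10). Chromosome 12 was shifted in the same direction, with a median of -0.31 over its other 761 tested genes. Of the 129 tested genes that start within 5 Mb of ERBB3, 67 were called lower and 17 higher, against 26.9% and 27.2% of all genes. The median of the 129 was -0.50. ERBB3 lay lower than this median by 0.78 on the log2 scale, at percentile 10.8 of the chromosome. The overlapping gene AC034102.2, on the same strand, had 0 counts in all libraries.

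ERBB4 (ENSG00000178568, chromosome 2, 211375717 to 212538841, minus strand), the other neuregulin receptor, had 0 counts in all 4 libraries. A count of 0 allows up to 3 counts, or 0.276 to 0.363 CPM depending on the library (counting error only, since PCR copies are not separated from independent molecules in these counts). At this depth ERBB4 was not detectable in either group.

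Below EGFR, ERBB3 led ERBB2 in MET+ cells but not in MET-KO cells. In MET+ cells ERBB3 lay above ERBB2 in both libraries. In MET-KO cells ERBB2 lay above ERBB3 in both libraries, at 28.0 against 25.1 CPM and at 24.4 against 19.4 CPM. Their ranges over the libraries overlapped. In MET-KO replicate 1 the pair could not be ordered, since the 95% Wilson intervals of their shares of the receptor counts overlapped. These were 22.46 to 27.45% for ERBB2 and 19.95 to 24.76% for ERBB3. The part of MIEN1 in the ERBB2 counts was not tested. As shares of the counts on the 4 receptors, EGFR took 48.5% and 43.5% in MET+ and 52.9% and 58.5% in MET-KO cells. ERBB3 took 34.5% and 34.4% in MET+ cells (95% Wilson intervals 32.0 to 37.2% and 32.0 to 36.8%) and 22.3% and 18.4% in MET-KO cells (19.9 to 24.8% and 16.3 to 20.8%). All Wilson intervals given here and below hold counting error only. Replicates differed by more than that (chi-square per degree of freedom 5.03 for MET+ and 4.62 for MET-KO), so the intervals are too narrow for the spread between libraries. The receptor counts together came to 155 and 157.5 CPM for MET+ and to 112.8 and 105.5 CPM for MET-KO.

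AREG (ENSG00000109321, chromosome 4, 74445134 to 74455009, plus strand) encodes amphiregulin, a low-affinity ligand of EGFR. It had 379 and 389.8 CPM for MET+ (3138 and 3798 counts) and 8.825 and 9.85 CPM for MET-KO (90 and 107 counts). The MET+ level was 41.2 times the MET-KO level, a log2 change of -5.36 (SE 0.12, edgeR adjusted p = 8.81e-28). EREG (ENSG00000124882, chromosome 4, 74365143 to 74388751, plus strand) encodes epiregulin, which binds EGFR and ERBB4. It had 377 and 356.5 CPM for MET+ and 4.80 and 5.43 CPM for MET-KO (3119 and 3473 against 49 and 59 counts). The MET+ level was 71.6 times that of MET-KO cells, a log2 change of -6.16 (SE 0.13, edgeR adjusted p = 2.21e-28). Neither gene came near overlapping between the groups. By p-value EREG ranked 10 and AREG 15 among the 13801 genes tested, and 1.71% of all genes were called with a log2 change of -4 or lower.

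AREG and EREG start 80.0 kb apart, on the same strand. The 250 bases before the RefSeq start site are shown for both, as the pair that fell together, and for BTC and TGFA, the neighbouring ligand with a smaller fall and the ligand that rose. The sequences are those of RefSeq on GRCh38.p14, where 9 of the 10 genes were matched by symbol (ERBB3 was not), and are written 5′ to 3′ on the gene's strand, with capitals marking the motifs searched. RefSeq and GENCODE place some starts differently. Of the 250 bases, 2 lie inside the GENCODE gene for AREG and for EREG, but 163 do for BTC and all 250 for TGFA, so these stretches lie mostly or wholly downstream of the GENCODE start whose coordinates are given here.
AREG, chr4:74444886-74445135, plus strand: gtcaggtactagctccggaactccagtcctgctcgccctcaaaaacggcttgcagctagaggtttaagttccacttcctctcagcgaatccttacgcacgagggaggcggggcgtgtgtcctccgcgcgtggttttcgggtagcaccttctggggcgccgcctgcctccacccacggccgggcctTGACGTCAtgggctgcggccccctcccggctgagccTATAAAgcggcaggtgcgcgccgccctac
EREG, chr4:74364895-74365144, plus strand: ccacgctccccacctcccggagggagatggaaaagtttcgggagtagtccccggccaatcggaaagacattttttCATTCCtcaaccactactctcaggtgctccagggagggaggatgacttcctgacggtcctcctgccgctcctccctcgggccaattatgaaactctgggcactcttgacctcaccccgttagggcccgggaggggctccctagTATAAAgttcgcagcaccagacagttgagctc
BTC, chr4:74794524-74794773, minus strand: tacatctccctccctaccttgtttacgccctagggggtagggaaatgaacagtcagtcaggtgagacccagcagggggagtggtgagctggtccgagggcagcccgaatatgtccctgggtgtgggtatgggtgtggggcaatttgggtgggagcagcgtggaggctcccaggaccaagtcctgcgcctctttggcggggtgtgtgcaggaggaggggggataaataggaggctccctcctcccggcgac
TGFA, chr2:70553827-70554076, minus strand: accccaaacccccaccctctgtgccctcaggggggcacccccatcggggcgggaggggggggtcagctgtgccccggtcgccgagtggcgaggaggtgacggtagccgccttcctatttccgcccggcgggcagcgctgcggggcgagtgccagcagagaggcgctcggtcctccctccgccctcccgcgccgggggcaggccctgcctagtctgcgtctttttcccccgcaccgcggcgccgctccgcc
The letters of 4 motifs were searched. The TATA letters TATAAA, on the gene's strand, lie 29 bases before the start of AREG and 32 before that of EREG, and in 7.17% of the same 250 bases of 27305 genes. The cyclic AMP response element TGACGTCA (either strand) lies 65 bases before the start of AREG and in 1.77% of all promoters. The letters bound by TEAD factors, GGAATG on either strand, lie 175 bases before the start of EREG (as CATTCC), 12 bases before that of EGF, and in 11.9% of all promoters. The AP-1 letters TGANTCA (either strand) are in none of the 4 sequences shown, in those of ERBB2 and EGF among the other genes studied here, and in 6.6% of all promoters. No match of the 4 motifs lies in the BTC and TGFA sequences, which are not to be read against those of AREG and EREG because of their different place in the gene. The bases G and C make up 65.2%, 58.0%, 62.0% and 75.6% of AREG, EREG, BTC and TGFA, against a median of 58.0% over all promoters. These matches describe the letters and were not tested for any activity.

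BTC (ENSG00000174808, chromosome 4, 74744759 to 74794686, minus strand) encodes betacellulin, a ligand of EGFR and ERBB4, and its annotated start lies 299.6 kb from that of AREG. It was the weakest of the detected ligands in MET+ cells, with 9.06 and 8.83 CPM, and had 4.51 CPM in each MET-KO library. The groups did not overlap, and the log2 change was -0.98 (SE 0.26, edgeR adjusted p = 0.00168). The fall was thus far smaller than those of AREG and EREG, whose 95% intervals (-5.61 to -5.11 and -6.43 to -5.89) lie apart from that of BTC (-1.51 to -0.46).

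The fall of AREG and EREG was not shared by chromosome 4 at large. The median change of its other 494 tested genes was 0.07, and the 39 tested genes that start within 5 Mb of AREG had a median of -0.05. Of these 39, 11 were called higher and 9 lower, against 27.2% and 26.9% of all genes. Of these 9 lower genes, 6 lay close to AREG and the others (SDAD1, SCARB2 and CCNG2) lay 1496 to 2712 kb away with changes of -0.42 to -0.47. In the 1223 kb from RASSF6 to BTC, limits set after the values were seen, 7 of 10 tested genes were called lower, against 26.9% of all genes. Besides the 3 ligands these were RASSF6 (-3.24), a RAS-association gene, and the chemokine genes CXCL8 (-2.42), CXCL1 (-1.07) and CXCL3 (-3.43), all as log2 changes. CXCL2, between them, had -0.19 (adjusted p = 0.613, edgeR), and MTHFD2L, a gene of folate metabolism, rose by 0.52 (adjusted p = 0.00295, edgeR). EPGN, the epigen gene that starts 56.7 kb from EREG, had 1 count in 1 library and 0 in the others.

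TGFA (ENSG00000163235, chromosome 2, 70447280 to 70554193, minus strand) encodes transforming growth factor alpha, a ligand of EGFR, and was the ligand that rose. It had 26.3 and 26.7 CPM for MET+ and 47.4 and 51.1 CPM for MET-KO, with both MET-KO libraries above both MET+ libraries. The mean rose 1.86-fold, from 26.5 ± 0.243 to 49.2 ± 2.65 CPM (SD, n = 2 each), and the log2 change was 0.89 (SE 0.12, edgeR adjusted p = 1.98e-07). The other 925 tested genes of chromosome 2 had a median of 0.03, and TGFA stood at percentile 82.5 among them. The intronic gene TGFA-IT1 had 0 counts in all libraries.

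HBEGF (ENSG00000113070, chromosome 5, 140332843 to 140346631, minus strand) encodes heparin-binding EGF-like growth factor, a ligand of EGFR and ERBB4. It had 23.2 and 24.7 CPM for MET+ and 8.73 and 7.37 CPM for MET-KO, and the groups did not overlap. The log2 change was -1.58 (SE 0.18, edgeR adjusted p = 5.2e-09). Chromosome 5 was shifted in the same direction, with a median of -0.43 over its other 616 tested genes. Of the 64 tested genes within 5 Mb of HBEGF, 37 were called lower and 9 higher, against 26.9% and 27.2% of all genes. The median of the 64 was -0.41. HBEGF was lower than that median by 1.17 on the log2 scale and stood at percentile 7.95 of the chromosome. EGF (ENSG00000138798, chromosome 4, 109912884 to 110012266, plus strand), the founding member of the family, had 0 counts in 3 libraries and 1 count in MET-KO replicate 2, at or under the limit of 3 counts in both groups, so no fold change is given.

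**Figure D2:**
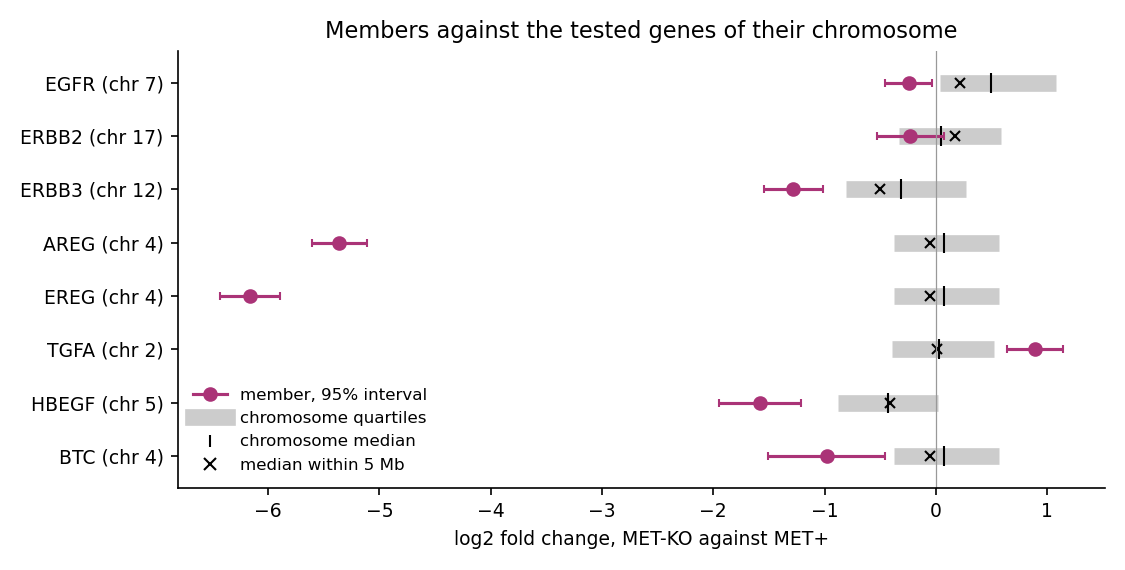
Log2 change (MET-KO over MET+) of the 8 tested genes with 95% intervals, beside the quartiles (grey bar) and median (tick) of the other tested genes of the same chromosome and the median of those within 5 Mb (cross). EGFR at -0.24 lies under the lower quartile of chromosome 7 (0.04), and ERBB3 and HBEGF lie under those of chromosomes 12 and 5 (-0.81 and -0.88), which are themselves shifted downward.

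The pool of the 6 ligands, which leaves out NRG1 and the other family ligands described below, shrank and changed its make-up. The 6 ligands together had 814.7 and 806.6 CPM for MET+ and 74.2 and 78.4 CPM for MET-KO, a mean 10.6 times higher in MET+ cells. The receptor pool was 1.43 times higher in MET+ cells. In MET+ cells AREG took 46.5% and 48.3% of the ligand counts and EREG 46.3% and 44.2%, while TGFA took 3.23% and 3.31%. In MET-KO cells TGFA took 63.8% and 65.2% (95% Wilson intervals 60.3 to 67.1% and 62.0 to 68.3%), AREG 11.9% and 12.6%, HBEGF 11.8% and 9.40%, EREG 6.47% and 6.93%, and BTC 6.08% and 5.76%. The share of HBEGF rose although its CPM fell, because the pool it was taken from fell further. In order of CPM, the ligands ran AREG and EREG, then TGFA and HBEGF, then BTC in MET+ cells. In MET+ replicate 1, AREG (379 CPM) and EREG (377 CPM) could not be ordered. The 95% Wilson intervals of their shares overlapped there, at 45.36 to 47.74% and 45.07 to 47.45%. In MET+ replicate 2 AREG lay above EREG, at 389.8 against 356.5 CPM. In MET-KO cells TGFA came first, AREG (8.825 and 9.85 CPM) lay close to HBEGF (8.73 and 7.37 CPM), and EREG and BTC followed.

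Genes that act around the receptors were described as 5 lists of 58 genes. Of these, 53 were tested, 13 were called higher and 12 lower in MET-KO cells, against 27.2% and 26.9% of all genes. The balance moved with the scaling, to 18 higher and 9 lower with library totals alone, and DESeq2's Wald test called 9 higher and 8 lower. When each library was left out in turn, 9 of the higher and 7 of the lower calls were kept in all 4 fits. The median log2 change of the 53 genes was 0.00, against -1.13 for the receptors and ligands.

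Among the other EGF-family ligands, NRG1, the neuregulin that binds ERBB3 and ERBB4, was the only gene tested. It was at 0 counts for MET+ and at 91 and 110 counts for MET-KO, where its level was 9.53 ± 0.853 CPM (SD, n = 2). With 3 counts per library as the most that 0 allows, NRG1 was at least 28.4-fold higher in the knock-out (edgeR adjusted p = 3.82e-12). Its level in MET-KO cells was close to that of AREG. NRG2 had 5 to 12 counts per library, NRG4 had 1 count in each MET+ library and 0 in MET-KO cells, and NRG3 had 0 throughout.

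Of 10 genes that release ligands, 9 were tested. Of these, 6 were called higher and 1 lower, against 27.2% and 26.9% of all genes, and the median log2 change was 0.45. ADAM10, a protease that releases EGF and betacellulin, rose from 59.8 ± 1.20 to 155 ± 2.18 CPM (SD, n = 2 each), and the log2 change was 1.37 (edgeR adjusted p = 7.5e-14). ADAM17, the main protease for AREG, EREG, TGFA and HBEGF, had 57.5 ± 10.0 CPM for MET+ and 48.1 ± 5.49 CPM for MET-KO (SD, n = 2 each), and its log2 change of -0.26 had an adjusted p of 0.0684 (edgeR). It passed without MET+ replicate 1 or without MET-KO replicate 1. FRMD8, which stabilizes the ADAM17 complex at the cell surface, fell from 169.7 to 114.1 CPM (log2 change -0.57, adjusted p = 1.82e-05, edgeR). RHBDL2, a rhomboid protease, had 0 counts in MET+ cells and 31 and 42 in MET-KO cells, at least 10.3-fold higher. ADAM9 and ADAM15 rose by 0.45 and 0.49 on the log2 scale. RHBDF2, which with RHBDF1 escorts ADAM17 to the surface, rose by 0.55, a call lost without MET-KO replicate 1, and RHBDF1 by 0.37, a call lost without MET+ replicate 2 or MET-KO replicate 2.

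Of 17 adaptor and relay genes, all 17 were tested, 2 were called higher and 4 lower, against 27.2% and 26.9% of all genes. GAB2, a docking protein that recruits PI3-kinase, fell furthest, from 40.7 ± 3.43 to 6.43 ± 0.890 CPM (SD, n = 2 each), and the log2 change was -2.66 (edgeR adjusted p = 2.88e-15). SHC1, which links phosphorylated receptors to GRB2, fell from 24.2 ± 0.513 to 11.2 ± 0.832 CPM (-1.11, adjusted p = 1.06e-06, edgeR). STAT3 rose from 27.2 to 52.0 CPM, a log2 change of 0.93. CRK, another adaptor, fell by 0.36 on the log2 scale, a call kept in all 4 fits that left out a library. SRC fell by 0.56, a call lost without MET+ replicate 2 or MET-KO replicate 1, and PIK3R1, a regulatory subunit of PI3-kinase, rose by 0.60, a call lost without MET-KO replicate 2. The other 11 genes, GRB2 among them (0.08, adjusted p = 0.519, edgeR), were not called.

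Of 12 genes listed under receptor attenuation, 3 were called higher and 3 lower, against 27.2% and 26.9% of all genes. CBLB, a ubiquitin ligase that marks activated EGFR for breakdown, rose from 2.42 to 7.41 CPM (log2 change 1.63), PTPN1, a phosphatase, from 77.3 to 170.1 CPM (1.14) and ERRFI1, an inhibitor that binds the EGFR kinase, from 95.2 to 128.3 CPM (0.43). LRIG3 fell from 6.03 to 2.37 CPM (-1.33). LRIG2 fell from 13.03 to 9.216 CPM (-0.50, adjusted p = 0.0364, edgeR), close to the threshold. Its call was lost without MET+ replicate 1, MET-KO replicate 1 or MET-KO replicate 2. RNF41, the ubiquitin ligase that controls the amount of ERBB3, fell from 61.3 ± 7.38 to 31.8 ± 2.02 CPM (SD, n = 2 each), and the log2 change was -0.95 (edgeR adjusted p = 3.61e-08). RNF41 starts 125 kb from ERBB3, inside the same downward-shifted stretch of chromosome 12. The counts of trafficking genes that follow stand against the same 27.2% and 26.9% of all genes. Of 14 trafficking genes, 1 was called higher and 4 lower, and USP8, a deubiquitinase of receptors on endosomes, was the only one of these kept in all 4 fits that left out a library, falling by 0.73 on the log2 scale.

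**Figure D3:**
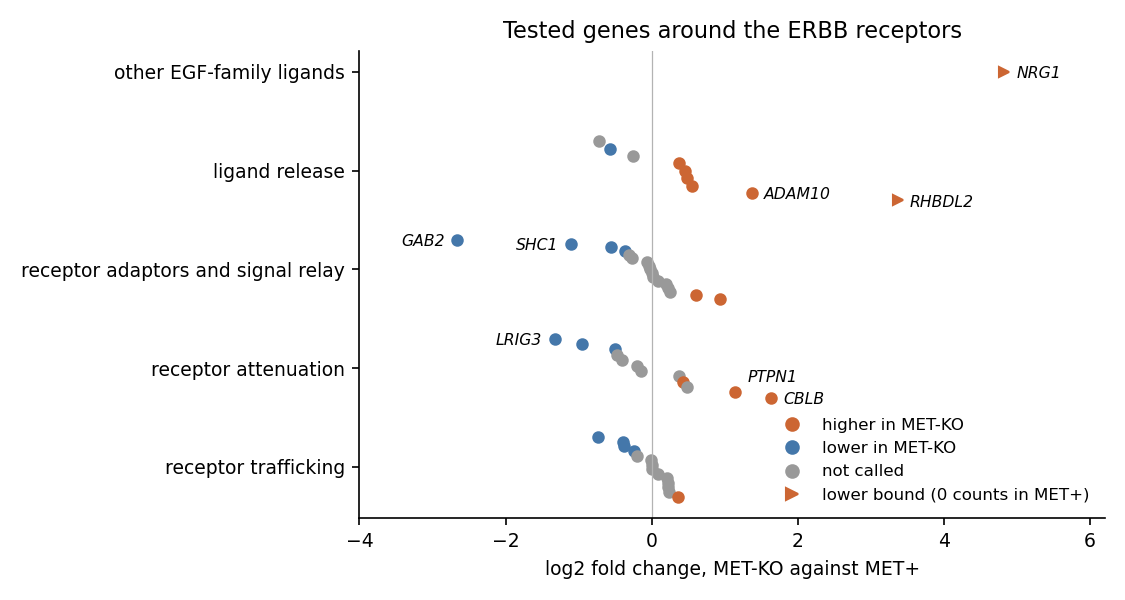
Log2 change (MET-KO over MET+) of the 53 tested genes in 5 lists around the ERBB receptors, 1 point per gene, named where called with a size of at least 1. Triangles are lower bounds for genes with 0 counts in MET+ cells. NRG1 and RHBDL2 lie furthest to the right and GAB2 furthest to the left, and the trafficking genes stay within 0.73 of 0.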

How the data were processed

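RNA of 2 MET+ and 2 MET-KO samples of LoVo cells was sequenced with QuantSeq 3' FWD libraries. The authors deposited whole read counts per Ensembl gene, not normalized, with 99 spike-in rows at 0 counts. The submitters' processing notes name cutadapt 1.16, STAR 2.5.4a, featureCounts 1.6.2, DESeq2 1.18.1 and GRCh38, and the strand setting and annotation version are not given in the sources used here. GENCODE version 29 held 58552 of the 58825 gene identifiers. Genes were filtered with filterByExpr, scaled by TMM and tested in R 4.3.3 with edgeR 4.0.16 (glmQLFit, condition as the only term, Benjamini-Hochberg over all genes tested, threshold 0.05). The code was first run on simulated data with 200 changed genes. In the real data 54.1% of tested genes were called, so that run cannot show that the scaling holds here. Standard errors are the log2 fold change divided by the square root of F, and 95% intervals use the test's degrees of freedom. p-values measure only the spread between these samples. Replicates differed by more than counting noise (chi-square per degree of freedom 5.03 and 4.62). A gene at or under 3 counts in every library of a group got a lower bound, from 3 counts per library. Named genes were the 10 members, listed genes called with a log2 size of at least 1, examples by size, MET, and the 2 genes nearest in pattern to the top receptor and ligand. The RASSF6 to BTC stretch and the other examples were named after their values were seen. The members and lists were chosen with earlier results of these data known. Alternatives were DESeq2 size factors, no scaling, the Wald test of DESeq2 1.42.0, a fit to all genes with a count, a minimum of 10 counts per library, a block on replicate number, and fits without each library in turn. Figures were drawn with matplotlib 3.10.9.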

Additional observations from a re-analysis of the deposited data

How the results depend on the processing

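The 5 lower and 1 higher calls among the 10 genes kept their direction and their side of the threshold under the alternatives run, except that leaving out a MET+ library also brought in EGFR (without replicate 2) or ERBB2 (without replicate 1). With each library left out in turn, the log2 fold change ranged from -0.32 to -0.17 for EGFR and from -0.41 to -0.016 for ERBB2. No result changed direction. Scaling by the library total alone moved the median of all genes from 0.01 to 0.11 and gave -0.14 for EGFR and -0.13 for ERBB2. The replicate numbers are not stated to mark a shared culture or day, and samples with the same number did not deviate together (correlation of deviations -0.011), so the fit with the replicate number as a block is given only here: it called 7055 genes against 7467, and 5 members lower and 1 higher, with EGFR at -0.24 (adjusted p = 0.1004, edgeR). DESeq2's Wald test called 5433 genes and the same number of members in each direction. Depth limits ERBB4 and EGF, which could each reach 0.363 CPM undetected in the shallowest library.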

Other observations

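The tested genes whose centred log2 CPM over the 4 libraries lay nearest to that of EGFR, by Euclidean distance, were TACC3 (0.018) and STAU1 (0.0229), with log2 fold changes of -0.24 and -0.26. Those nearest to AREG were LINC02474 (0.192) and NRN1 (0.203). NRN1, which encodes the neuronal growth protein neuritin, had 194 and 204 CPM in MET+ and 5.39 and 5.53 CPM in MET-KO cells. LINC02474, a long noncoding RNA, had 1.93 and 1.85 CPM in MET+ cells and 0 counts in MET-KO cells, so its nearness depends on the 0.5 counts added before the logarithm. With 4 libraries in 2 groups such nearness mostly says that genes differ between the groups by a like amount.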
